A study of Mus musculus with 2 samples.

Results

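The Kcnq1ot1 imprinted domain on distal mouse chromosome 7 was described through 5 of its genes, Kcnq1ot1, Kcnq1, Cdkn1c, Slc22a18 and Phlda2. Each gene was represented by the deposited 100 bp windows that overlap its span in the mm10 genome build with 1 kb added on each side. This took 300 of the 2537435 windows of the table, each counted once: 226 at Kcnq1, which contain all 30 at Kcnq1ot1, then 35 at Cdkn1c, 36 at Slc22a18 and 3 at Phlda2. The 12 listed windows, of 21 possible, within 1 kb of the Kcnq1ot1 transcription start were kept apart as its promoter.

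Methylated DNA of mouse testis was captured with the methyl-CpG binding domain of MBD2 and sequenced, with 1 library from a wildtype and 1 from a Kaiso knockout, both on a C57BL/6 background. Kaiso, the product of Zbtb33, is a transcriptional repressor with zinc fingers that recognise methylated CpGs. Generation 3 offspring and male sterile were the phenotype terms of the knockout sample; its free-text description contradicts its genotype label by also calling the testis wildtype, so the grouping follows the genotype label. The kind of knockout allele, the age of the animals and whether a library came from 1 animal are not given in the sources used here. With a single library per genotype no difference has a replicate check and no p-value is given; intervals are 95% intervals for counting error only. Captured DNA comes from all cells of the testis, so a change in methylation per cell and a change in the share of cells that carry it cannot be told apart.

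In somatic cells this domain is controlled by a CpG-rich region at the Kcnq1ot1 promoter, within an intron of Kcnq1. The region gains its methylation in oocytes and is unmethylated in sperm. On the paternal copy the unmethylated promoter drives the long noncoding RNA Kcnq1ot1, which silences neighbouring protein-coding genes in cis, while on the maternal copy the promoter is methylated and silent. Male germ cells erase the maternal mark before spermatogenesis. Among the protein-coding genes, Kcnq1 encodes a voltage-gated potassium channel subunit, Cdkn1c a cyclin-dependent kinase inhibitor that restrains growth, Slc22a18 a membrane transporter, and Phlda2 a pleckstrin homology-like domain protein that restrains placental growth.

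On chromosome 7 of mm10, Kcnq1 spans 143106877 to 143427050 and Kcnq1ot1 lies within it on the minus strand, from 143213111 to its start at 143296547. Cdkn1c spans 143458339 to 143461059, Slc22a18 143473726 to 143499334 and Phlda2 143501545 to 143503145. Along the chromosome their starts lie 164.5, 177.2 and 206.0 kb beyond the Kcnq1ot1 start. The RefSeq promoter table (GRCm38.p6, the assembly of mm10) held 3 of the 5 genes. The sequences below are shown because CpGs, given in capitals, are what the capture reads, and because the 3 starts differ in them. Kcnq1ot1 is given from 250 bases before to 50 after its start (chr7:143296498-143296797, minus strand), a stretch overlapped by captured windows. Phlda2 (chr7:143502525-143502774, minus strand) and Slc22a18 (chr7:143473539-143473788, plus strand) are given for the 250 bases before the start, all 5′ to 3′.
Kcnq1ot1: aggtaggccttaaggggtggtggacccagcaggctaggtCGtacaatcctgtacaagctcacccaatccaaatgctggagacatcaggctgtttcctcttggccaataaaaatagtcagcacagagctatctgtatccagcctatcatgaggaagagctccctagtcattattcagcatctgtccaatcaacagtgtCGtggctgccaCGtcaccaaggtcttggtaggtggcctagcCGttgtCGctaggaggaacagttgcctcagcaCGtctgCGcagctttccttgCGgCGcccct
Phlda2: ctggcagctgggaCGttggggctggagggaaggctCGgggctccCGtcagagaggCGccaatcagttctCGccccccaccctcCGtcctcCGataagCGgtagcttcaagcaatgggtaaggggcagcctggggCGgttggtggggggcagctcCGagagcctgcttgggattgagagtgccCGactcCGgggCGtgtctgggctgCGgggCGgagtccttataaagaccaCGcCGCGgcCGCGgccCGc
Slc22a18: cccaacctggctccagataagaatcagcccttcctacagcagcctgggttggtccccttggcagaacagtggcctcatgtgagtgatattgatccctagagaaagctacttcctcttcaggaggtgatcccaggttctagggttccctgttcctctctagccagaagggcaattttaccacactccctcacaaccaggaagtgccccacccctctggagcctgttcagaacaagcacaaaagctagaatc
The full 300 bases held 9 CpGs at Kcnq1ot1, 26 at Phlda2 and 2 at Slc22a18, against a median of 7.0 over all 32851 promoters of the table. CGCG and TCCTGCNA, sequences known to be bound by Kaiso, were searched on both strands. CGCG occurred 2 times at Phlda2 and not in the other two windows, and 38.0% of all promoters held it. TCCTGCNA was in none of the 3, and 5.0% of all promoters held it. CCAAT, added after the sequences had been seen, occurred 3 times at Kcnq1ot1, and 96.6% of promoters held fewer. These matches describe letters only.

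The table lists only windows whose deposited p-value was below 0.05, so a window that is not listed was not shown to be unchanged, and counts of windows by direction describe listed windows. Library sizes read from the deposited counts and RPKM (reads per window, scaled to window length and library reads) were 87710791 for wildtype and 98549116 for the knockout. Of all listed windows 56.5% were higher in the knockout library, and this share ran from 37.8% of windows with 1 CpG to 99% of windows with 11 or more. Over the span of Zbtb33 itself 303 wildtype and 83 knockout counts were listed, a log2 ratio of -2.04 (-2.81 to -1.32), which reads methylated DNA and does not check the knockout. All ratios are knockout over wildtype counts scaled by library reads, and a region was called with at least 20 fragments (summed window counts divided by 4), at least a 2-fold difference in either direction and an interval that excludes equality.

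At the Kcnq1ot1 promoter the wildtype library had 25 counts and the knockout library 569. Mean RPKM over the 12 listed windows, of 21 possible, was 0.238 in wildtype and 4.81 in the knockout. No promoter window upstream of 143296800 was listed. Every one of the 12 windows was higher in the knockout: wildtype windows held 0 to 6 counts (median 1.5) and knockout windows 19 to 69 (median 50). Of all listed windows 56.5% were higher, with 98.9% of those with 5 to 10 CpGs and 99% of those with 11 or more. Neighbouring windows count the same reads, so the 12 are not replicates. The ratio was 20.3-fold (9.21 to 54.7), or 4.34 on the log2 scale (3.20 to 5.77). Of the promoters of the RefSeq table with enough fragments, 38.8% were called higher and 17.0% lower, and 227 of 13403 had a ratio at least as high as that of Kcnq1ot1. Promoters without a wildtype fragment were ranked at the floor of 3 fragments, so 227 is a minimum.

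The promoter windows belong to a longer stretch of high windows that runs into the transcribed side. It covers 1.8 kb (chr7:143295001-143296800), with 17 of its 18 windows listed and 100 CpGs in them. Its limits were set after the values had been seen, by joining higher windows no more than 200 bp apart. The other stretches and runs described below were likewise joined by direction, and no interval allows for that choice. It held 45 wildtype and 786 knockout counts, a mean RPKM of 0.302 against 4.69 and a ratio of 15.5-fold (8.55 to 31.4). At the end inside the gene, the window at 143295001 had 9 wildtype and 38 knockout counts, and the next one 8 and 44. Those at 143295201 and 143295301 had 2 and 43, then 1 and 46. In the 5 windows from 143295401 to 143295900 the wildtype library had no count at all, while the knockout library had 46, 59, 66, 69 and 65. These 5 hold 43 CpGs, 13 of them in the window at 143295601 and 12 in the one at 143295701. Their knockout capture was at least 22.6-fold higher than in wildtype, set to the floor of 3 fragments. Because the 5 were picked for having no wildtype count, a high ratio was fixed in advance.

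Towards the start the knockout counts declined and the wildtype counts increased slightly. The windows at 143295901 and 143296001 had 1 wildtype count each and 61 and 55 in the knockout; the first of them had the largest ratio among windows of the domain with a wildtype count, 54.3-fold, while those without one give lower bounds only. The windows at 143296101 and 143296201 had 2 and 3 wildtype against 45 and 42 knockout counts. Nearest the start, those at 143296301, 143296401 and 143296501 had 4, 5 and 6 against 29, 29 and 30. The last of these contains the start, and the window at 143296701, inside the printed sequence, had 3 and 19. Knockout capture was thus highest over the CpG-densest windows, inside the transcribed region, and not at the start itself. Among all listed windows with 11 or more CpGs, the knockout RPKM of the windows with 13 and 12 CpGs stood at the 43.6 and 45.3 percentile. The 8 windows of the stretch with 5 to 9 CpGs stood lower, at the 3.9 to 12.4 percentile of listed windows with their own CpG number.

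**Figure D1:**
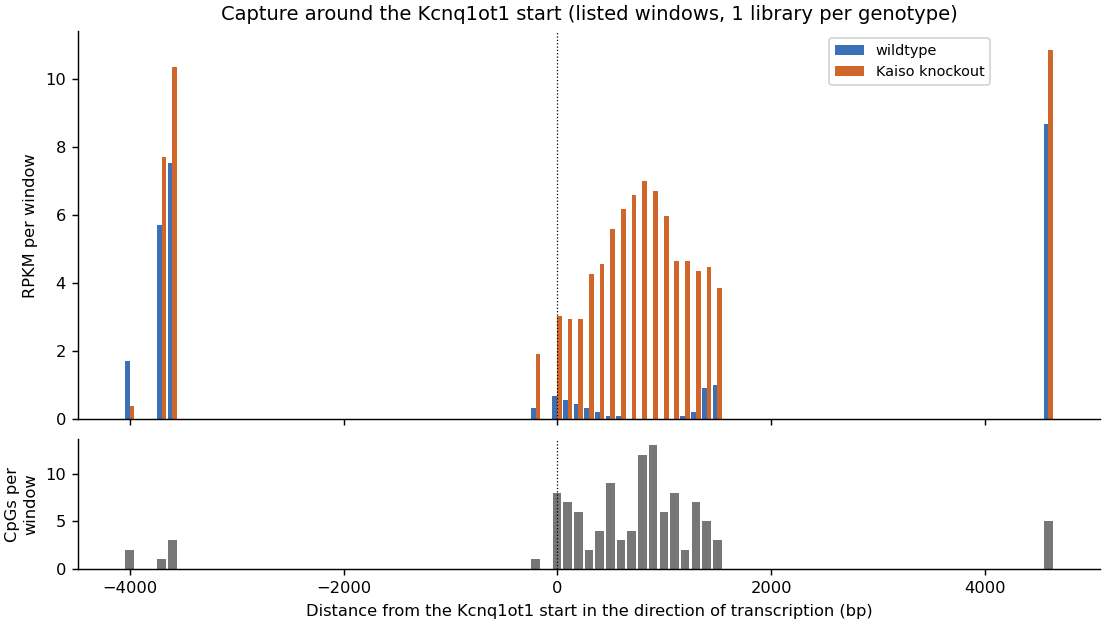
Deposited RPKM of each listed 100 bp window (top) and its number of CpGs (bottom) against the distance in bp from the Kcnq1ot1 start, positive in the direction of transcription, 1 library per genotype. Wildtype bars are at or near 0 across the 1.8 kb stretch where knockout bars stand between 1.93 and 7.0 RPKM, while the listed windows beyond 3 kb on either side show capture in both libraries.

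The next listed windows on either side were captured in both libraries. On the gene side, 3.0 kb away, a window with 5 CpGs had 76 wildtype and 107 knockout counts, a log2 ratio of 0.33. On the upstream side, 3.3 kb away, a window with 3 CpGs had 66 and 102, a log2 ratio of 0.46. Low wildtype capture thus held for the stretch and not for these neighbours. Over the whole Kcnq1ot1 span 30 of 855 possible windows were listed, with 500 wildtype and 1198 knockout counts and a log2 ratio of 1.09 (0.79 to 1.41). The span was called higher, as were 9.64% of protein-coding gene spans, with 5.63% called lower, but scaling by autosomal counts, by TMM or within CpG classes took it below 2-fold. Without the 1.8 kb stretch 13 windows remained, with 455 and 412 counts and a log2 ratio of -0.31 (-0.71 to 0.09). Of these 13 windows 3 (23.1%) were higher and 10 lower, and 8 held only 1 or 2 CpGs. At the genome rate for the CpG numbers of all 13, 57.2% would be higher in direction. Of the 10 with at least 20 counts, 7 were called lower and 0 higher, beside 33.2% and 16.8% of all listed windows. Some of the 13 are neighbours that count the same reads. The lowest ratio of the 13 was at 143253301, with 19 wildtype and 2 knockout counts. This window lay in a run of 4 adjacent lower windows that summed to 70 and 15.

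Kcnq1, the channel gene on the opposite strand, had 226 of 3223 possible windows listed over its 320.2 kb, or 7.0%. They held 8517 wildtype and 11521 knockout counts, with a mean RPKM of 4.30 and 5.17 and a log2 ratio of 0.27 (0.19 to 0.35). That ratio was near the median of gene spans, 0.31, and the span was not called. Outside the stretch at Kcnq1ot1, 105 windows were higher and 104 lower. The higher ones had a median of 3 CpGs and a median log2 ratio of 0.63, and the lower ones had a median of 1 CpG and -1.81. Of the 182 with at least 20 counts, 15 (8.2%) were called higher and 71 (39.0%) lower, beside 16.8% and 33.2% of all listed windows.

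The promoter of Kcnq1 was among the high regions of the domain despite a low level. Its 6 listed windows, of 21 possible, held 0, 1, 1, 1, 2 and 1 wildtype counts against 15, 20, 23, 22, 17 and 11 in the knockout. Mean RPKM was 0.114 and 1.83, and the log2 ratio was 4.0 (1.77 to 7.86), an interval set wide by 6 wildtype counts in all. Those counts make 1.5 fragments, so the floor of 3 fragments was not applied. At least 435 of 13403 promoters had a ratio as high, and 38.8% of promoters were called higher and 17.0% lower. The window at 143106601, with 1 and 23 counts, had the largest ratio of Kcnq1 outside Kcnq1ot1 among windows with a wildtype count, 4.36 on the log2 scale. With 2 kb on each side of the start the region's log2 ratio was 0.82, under the threshold. Another higher stretch lay 47.3 kb beyond the start (chr7:143154201-143155300), where 9 listed windows had 41 wildtype and 321 knockout counts, a ratio of 6.97-fold (3.62 to 14.9).

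The other listed windows of Kcnq1 went in both directions. At 143325001 to 143325500, among the most strongly captured parts of the gene, the counts were 357 and 722, a log2 ratio of 0.85 (0.47 to 1.23). The longest run of lower windows, 10 windows of 1 or 2 CpGs from 143400301 to 143401300, had 571 wildtype and 286 knockout counts, a log2 ratio of -1.17 (-1.60 to -0.75). The smallest ratio among windows with a knockout count was at 143169601, with 17 wildtype counts and 1 knockout count. In 4 adjacent windows from 143135901 to 143136300 the knockout library had 0 counts and wildtype 53, under the minimum for a call. The part of Kcnq1 before the end of Kcnq1ot1 had a log2 ratio of 0.06 (-0.08 to 0.20) and the part beyond the Kcnq1ot1 start 0.28 (0.17 to 0.38).

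**Figure D2:**
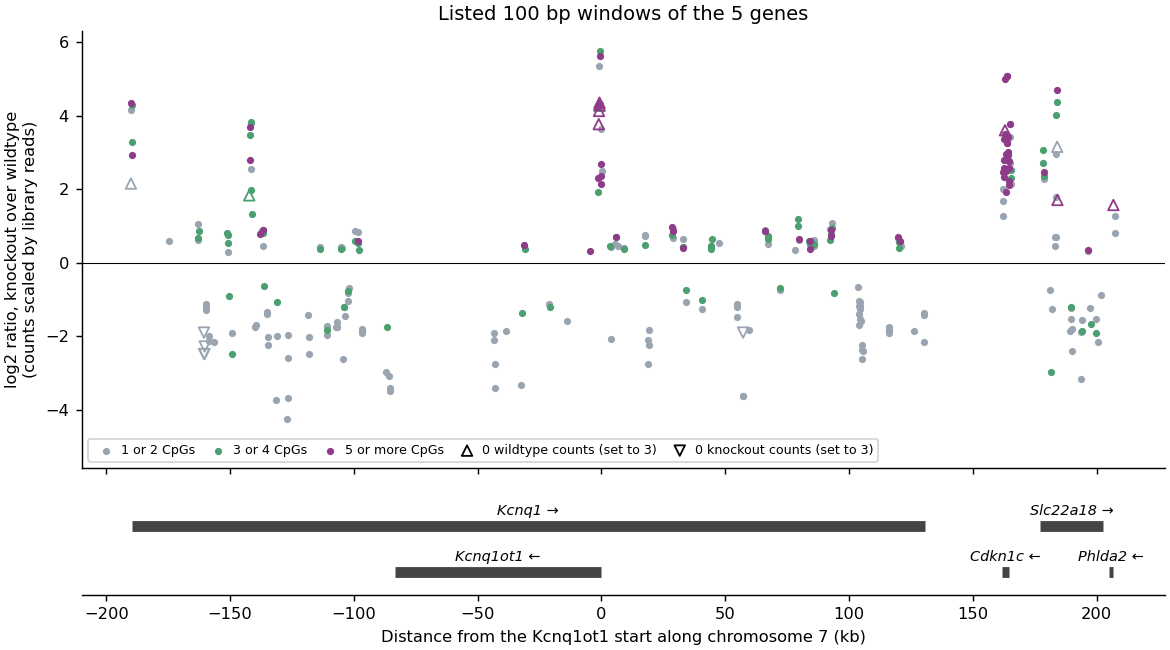
Log2 ratio of knockout over wildtype counts, scaled by library reads, for each of the 300 listed windows against distance from the Kcnq1ot1 start in kb, coloured by CpG number, with the gene spans and their direction underneath; triangles mark windows in which 1 library had no count, set to 3. The highest windows sit at the Kcnq1ot1 promoter, the Kcnq1 start, 47.3 kb beyond it, Cdkn1c and the first part of Slc22a18, and the empty band around 0 follows from the p-value selection of the table.

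Cdkn1c, the growth restraining target of the domain, was higher in the knockout in every listed window. Its 35 listed windows, of 48 possible, were adjacent (chr7:143458601-143462100), leaving the last stretch at the 3′ end without a value, and all 35 were higher. Wildtype windows held 0 to 18 counts (median 4) and knockout windows 11 to 62 (median 36). The sums were 173 and 1256, mean RPKM 0.564 and 3.64, and the ratio 6.46-fold (4.69 to 9.10), or 2.69 on the log2 scale. All 32 windows with at least 20 counts were called higher, beside 16.8% of all listed windows, whatever their CpG number. A share of calls at matched CpG number was not computed. Neighbouring windows count the same reads, so the 32 are not separate observations. Cdkn1c windows are rich in CpGs, and at the genome rate for their CpG numbers 87.8% would be higher in direction. Of 19221 gene spans, 349 had a ratio at least as high, a minimum because of the floor.

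Within Cdkn1c the promoter and the far end differed in level. All 21 windows within 1 kb of its start were listed, with 70 wildtype and 634 knockout counts, a mean RPKM of 0.380 and 3.06 and a log2 ratio of 3.01 (2.30 to 3.81). Among promoters 1500 of 13403 were at least as high, again a minimum, and the interval overlaps that of the Kcnq1ot1 promoter. The windows at 143460301 and 143460401 had the largest ratio among windows with a wildtype count, each with 1 and 38 counts. The window at 143459501, with 11 CpGs, had 0 and 41, at least 12.2-fold higher. Knockout capture was greatest near the 3′ end, where the window at 143458901 had 10 and 62 counts. There the wildtype level was greater too, and the smallest ratio of the gene was at 143458601, with 18 and 49 counts and a log2 ratio of 1.28 (0.47 to 2.14).

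**Figure D3:**
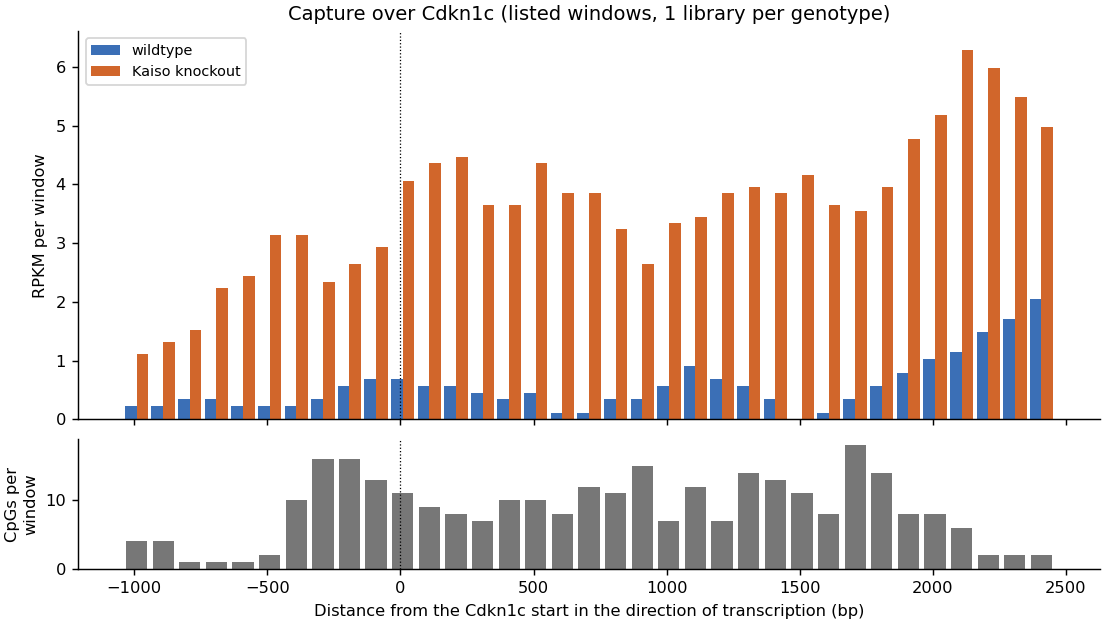
Deposited RPKM of each listed 100 bp window over Cdkn1c (top) and its CpG number (bottom) against distance in bp from the gene's start, positive in the direction of transcription. Every knockout bar stands above its wildtype bar, and both libraries have their greatest levels near the 3′ end.

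Slc22a18 contained stretches of both directions. Over its span 36 of 277 windows were listed, 17 higher and 19 lower, with 914 wildtype and 1100 knockout counts and a log2 ratio of 0.10 (-0.16 to 0.36), not called. No window within 1 kb of its start was listed. Beginning 1.1 kb beyond the start, 5 windows had 2, 3, 5, 5 and 5 wildtype counts against 19, 22, 29, 31 and 27, a log2 ratio of 2.51 (1.14 to 4.23).

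A longer higher stretch of 10 windows lay 6.0 kb beyond the start (chr7:143479801-143480800), where the libraries parted along the sequence. In its first window wildtype had 63 and the knockout 97 counts. In the window at 143480401, with 6 CpGs, they had 2 and 58, the largest ratio among windows of the gene with a wildtype count, 4.69 on the log2 scale (2.77 to 7.77). The window at 143480601 had 0 and 30, at least 8.90-fold higher. In the last window they had 0 and 11. The sums were 156 and 510, a log2 ratio of 1.54 (1.01 to 2.10). Further into the gene the direction turned: 6 windows from 143485901 to 143486600 had 187 and 73 counts, a log2 ratio of -1.53 (-2.39 to -0.72). In 4 windows from 143490301 to 143490700 they had 147 and 42, a log2 ratio of -1.98 (-3.12 to -0.96), and the first of these, with 32 and 4, had the smallest ratio of the gene.

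Phlda2, whose promoter is the richest in CpGs of the 3 printed, had few listed windows, and capture in the unlisted ones is not known. Only 3 of 37 windows were listed: 0 wildtype and 10 knockout counts at 143503301, 7 and 19 at 143503901, and 26 and 51 at 143504101. All 3 lay in the 1 kb added upstream of the gene, so the gene itself had no value. Each of the 3 was higher in the knockout. Their sum, 33 and 80, gave a log2 ratio of 1.11 with an interval of -0.12 to 2.48, so a difference was not detectable at this depth; with the authors' scaling (1.24) or scaling within CpG classes (1.70) it was called higher. The only listed window within 1 kb of its start, the one with 10 CpGs, was under the minimum.

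**Figure D4:**
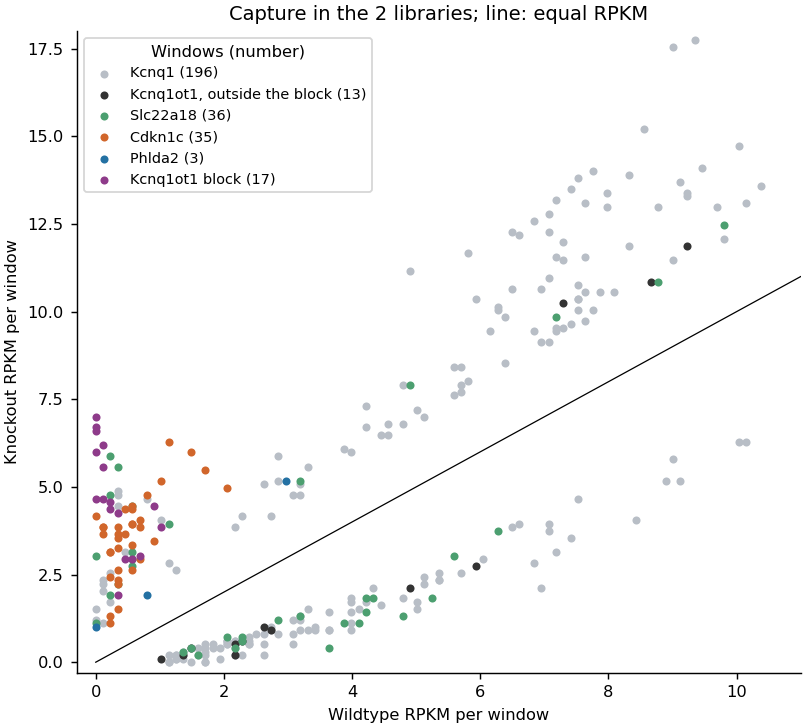
Deposited RPKM in the knockout library against RPKM in the wildtype library for the 300 listed windows, coloured by gene, with the line of equal RPKM. Windows of the Kcnq1ot1 stretch and of Cdkn1c lie along the left edge, at 2.05 wildtype RPKM or less, while most Kcnq1 windows fall in bands on either side of the line, the gap between which comes from the p-value selection.

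Across the 300 windows, 177 were higher and 123 lower, and the share that was higher grew with CpG number. It was 31 of 98 among windows with 1 CpG, 31 of 68 with 2, 31 of 46 with 3, and 22 of 26 with 4. All 47 windows with 5 to 10 CpGs were higher, as were all 15 with 11 or more, beside 98.9% and 99% of all listed windows in those classes. The direction of CpG-rich windows was thus that of the genome, whereas their size and level were not alike. Members with 5 to 10 CpGs had a median log2 ratio of 2.37 against 0.66 for all listed windows of that class, with median RPKM of 0.684 and 4.77 against 7.98 and 12.3. Kcnq1 outside the stretch was like the genome here, with 21 such windows at a median of 0.71, whereas the 8 at the Kcnq1ot1 stretch had 3.23, the 13 at Cdkn1c 2.97 and the 4 at Slc22a18 2.09. With 11 or more CpGs the medians were 2.95 for the members and 1.79 for all listed windows, and the members were 13 windows of Cdkn1c and 2 of the Kcnq1ot1 stretch. Without the 17 windows at Kcnq1ot1 the union of the 5 genes had a log2 ratio of 0.29 (0.21 to 0.37), against 0.37 (0.29 to 0.44) with them.

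Of 14 neighbouring genes, from Th to Dhcr7, 3 had enough fragments at their promoter or gene ends. None of the 3 was called higher and Tnfrsf26, a receptor of the tumour necrosis factor family, was called lower at -1.14 (-2.05 to -0.27). Of all promoters 38.8% and 17.0% were called higher and lower, and of all gene ends 22.5% and 13.3%. Over their spans 1 of 14 was called higher, Tssc4 at 1.16, and 1 lower, Tspan32 at -2.23, with a median of -0.29, beside 9.64% and 5.63% of all gene spans called higher and lower. In the adjacent Igf2 and H19 domain neither the gene ends of H19 (0.73) nor the promoter of Igf2 (0.33) was called.

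Of 15 genes elsewhere with a promoter methylated on the maternal copy, 13 had enough fragments; Nespas was not matched in the annotation and Inpp5f was under the minimum. For Peg10 and Peg13, which have no start in the promoter table, both gene ends were used. Of the 13, 12 were called higher and none lower, beside 38.8% and 17.0% of all promoters and 22.5% and 13.3% of gene ends. The list was chosen with earlier results of these data known, and these shares are not matched for CpG number. Log2 ratios of the 13 ran from 0.99 to 3.75, with a median of 2.85 beside 0.62 over all promoters. The largest were Mcts2 at 3.75 (3.09 to 4.49) and Snrpn at 3.51 (2.57 to 4.64), followed by Mest and Plagl1 at 3.40 and 3.34. The Kcnq1ot1 value lay above all 13, but its interval overlaps those of 8 of them, Mcts2 and Snrpn included. Mean RPKM over these 13 regions was 0.391 to 3.55 in wildtype and 2.80 to 7.04 in the knockout. The 0.238 of Kcnq1ot1 was below that wildtype range and its 4.81 within the knockout range. Inpp5f, left out of the ranges, had 0 wildtype and 35 knockout counts in its 2 listed windows. Of the paternally methylated loci, the promoters of Zdbf2 (2.82) and Meg3 (1.39) were called higher, and the gene ends of H19 were not. Rasgrf1 had no listed window at its promoter. These regions are not necessarily the methylated control regions of those loci. In the stretch 2 to 4 kb upstream of H19 only 3 of 21 possible windows were listed, with 11 CpGs. They held 254 wildtype and 350 knockout counts, a log2 ratio of 0.29 (-0.19 to 0.78), not called. The rest of that stretch has no value.

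Promoters of germline genes, which are methylated in somatic cells and unmethylated in male germ cells, differed between the libraries in the same direction. All 12 had enough fragments and 11 were called higher and none lower, beside the same 38.8% and 17.0% of all promoters. This list too was chosen with earlier results known, and a share at matched CpG number was not computed. Log2 ratios of the 12 ran from 0.73 to 3.66, with a median of 2.87. The largest was at Dazl, an RNA-binding protein of germ cells, at 3.66 (2.96 to 4.45). Their mean RPKM ran from 0.432 to 3.58 in wildtype (median 0.868) and from 3.68 to 7.55 in the knockout (median 5.94), and none was at 0 in either library. Only Tdrd1, at 0.73, was not called. The part of the cell makeup of the testis in the values at Kcnq1ot1 and Cdkn1c was not tested.

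**Figure D5:**
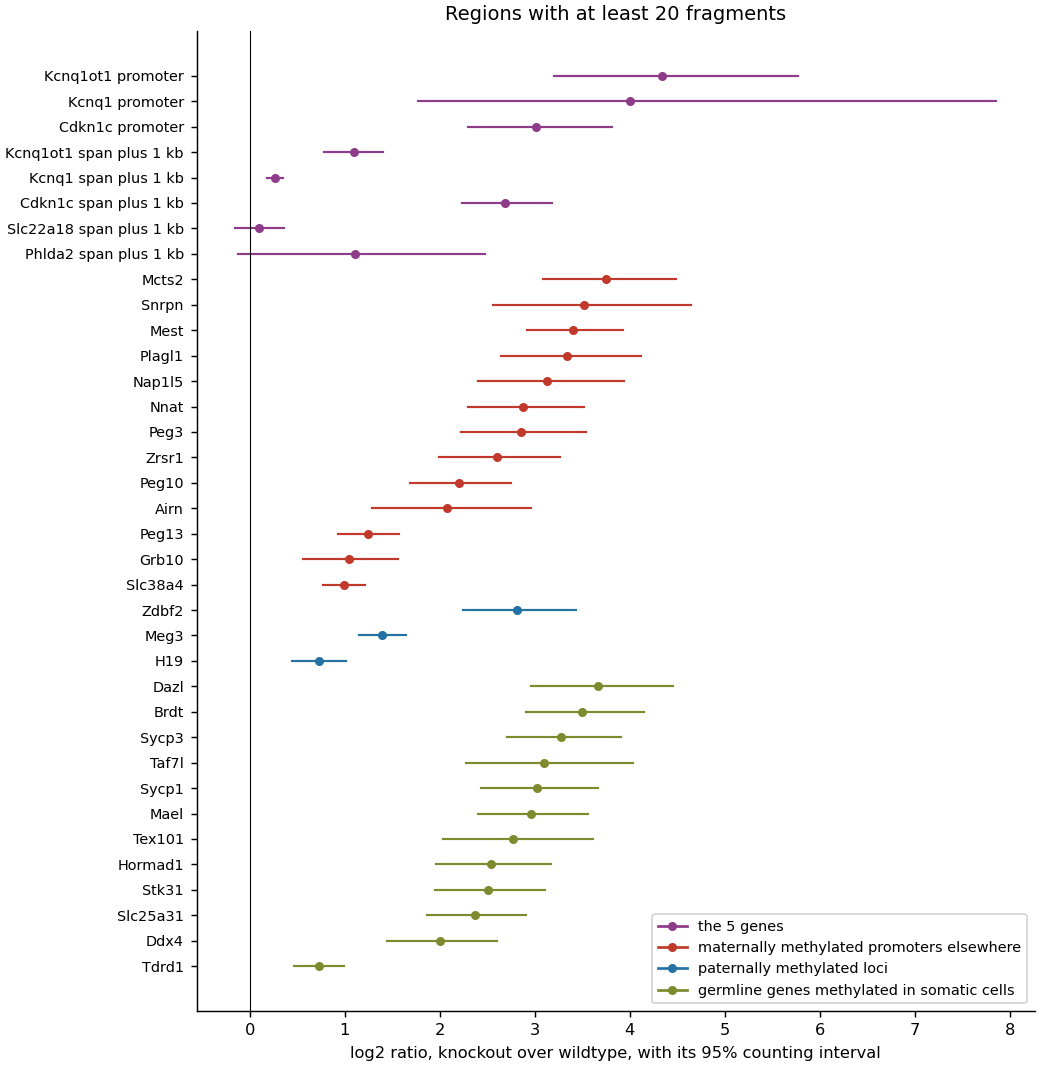
Log2 ratio of knockout over wildtype counts with its 95% counting interval for the regions with at least 20 fragments, by list. For Peg10, Peg13 and H19 both gene ends were used. The Kcnq1ot1, Kcnq1 and Cdkn1c promoters fall in the range of the maternally methylated and germline regions or above it, while the spans of Kcnq1 and Slc22a18 lie near 0.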

How the data were processed

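MBD2-captured testis DNA was compared between 1 wildtype and 1 Kaiso knockout library. The submitters' processing notes name Bowtie2 2.2.6, edgeR and mm10; read extension and duplicate handling are not given in the sources used here. Per the file headers, the deposited table gives for each 100 bp window the authors' count, RPKM, relative methylation score, CpG count, log2 fold change (wildtype over knockout) and p-value. The deposited p-value was below 0.05 in every window and equal to the adjusted one. Another 10 columns of values per sample or group were not used.

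Window counts were summed, divided by 4 to approximate fragments, because a read is counted in several windows, and scaled by library reads. Each interval is the exact Clopper-Pearson 95% interval for the knockout share of fragments; PCR copies of a molecule are not independent. A library without a fragment was set to 3 fragments (3 counts in a single window). Starts came from RefSeq for 3 genes and from gene ends for Kcnq1 and Cdkn1c. Named were all 5 genes, every promoter window of Kcnq1ot1, the extreme windows and longest runs elsewhere, and called list genes. Members and lists were chosen with earlier results of these data known. Alternatives covered scaling (including TMM, edgeR 4.0.16), minimums and region limits. Python 3.11.15 and scipy 1.17.1 were used.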

Additional observations from a re-analysis of the deposited data

How the results depend on the processing

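The Kcnq1ot1 promoter kept its direction and its call under all 9 alternatives (log2 ratio 3.21 to 4.47), as did Cdkn1c over its span (2.24 to 2.82) and promoter (2.39 to 3.14). The Kcnq1ot1 span was 0.73 when scaled within CpG classes, 0.24 without the promoter windows and -0.31, reversed, without the 1.8 kb stretch, an alternative chosen after seeing the data; fewer windows make up the last pair. The Kcnq1 span was -0.0044 scaled by autosomal counts, 0.094 by TMM, 0.40 by the authors' scaling, 0.50 within CpG classes and 0.17 without the stretch, and was never called. The Slc22a18 span was -0.17 and 0.64 under autosomal and CpG class scaling and was never called. The Kcnq1 promoter was 0.82 with 2 kb on each side, and 2.27, against the floor, when only windows with at least 20 counts were kept. The Phlda2 span ran from 0.84 to 1.70 and was called higher under the authors' scaling (1.24), within CpG classes, and when counts were not divided by 4. At a 1.5-fold threshold 21.6% of gene spans and 39.5% of gene ends were called higher. Autosomal, TMM and the authors' scaling shift every log2 ratio by -0.27, -0.17 and 0.13. The Slc22a18 promoter had no listed window and that of Phlda2 was under the floor, so neither had alternatives. No paired analysis was possible because each genotype had 1 library. At this depth the Kcnq1 promoter rests on 6 wildtype counts and Phlda2 on 33.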
